A study of Mus musculus with 4 samples.

Results

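The genes described here encode the subunits of the mouse SWI/SNF chromatin remodelling complexes. They are 31 genes, of 21887 protein-coding genes in the annotation, and they were chosen by name as subunits of the BAF, PBAF and non-canonical BAF forms. Chromatin accessibility was measured by ATAC-seq, in which a transposase cuts open DNA and leaves sequencing adapters in it, in female germ cells of C57BL/6 embryos at embryonic day 15.5. Germ cells were sorted by an Oct4-EGFP reporter, which all 4 libraries share. There were 2 libraries with the genotype Control (Control 1 and Control 2) and 2 with the genotype Snf5 CKO, named here Snf5 CKO 1 and Snf5 CKO 2, in which Snf5 was conditionally knocked out. Snf5 is a synonym of Smarcb1, so 1 of the 31 genes is the targeted gene. The labels used here do not give the Cre driver, the deleted stretch of Smarcb1, or how many embryos went into a library.

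SWI/SNF complexes use the energy of ATP to slide or evict nucleosomes, and they are known for keeping promoters and enhancers accessible. Each complex has 1 ATPase, a core of shared subunits around it, and further subunits that define its form: ARID1 and DPF proteins in BAF, ARID2, PBRM1, BRD7 and PHF10 in PBAF, and BRD9 with BICRA or BICRAL in non-canonical BAF. SMARCB1 belongs to the core of BAF and PBAF and is not a subunit of non-canonical BAF. Many positions are filled by 1 of several paralogues, and some paralogues, such as Actl6b, Dpf1, Dpf3 and Ss18l1, are best known from neurons.

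Of the 31 genes, 24 had a promoter sequence in the RefSeq table of GRCm38.p6 (the mm10 build), which spans 250 bases before and 50 after a start site. The sequences of 1 ATPase gene and 3 core genes are shown as examples. Smarcb1 lost its start peak, while its partners Smarca4 and Smarcc1 kept theirs and share a motif with it. The Smarcd3 sequence lies over a start site inside the gene where Snf5 CKO 1 had no peak. Whether any motif bears on these states was not tested. They are printed from 5′ to 3′ on the strand of the gene, and capitals mark GGGCGG, the GC box bound by Sp-family factors, and GCATGCGC, the core letters of the NRF1 site, on either strand.
Smarcb1 (chr10:75921565-75921864, minus strand): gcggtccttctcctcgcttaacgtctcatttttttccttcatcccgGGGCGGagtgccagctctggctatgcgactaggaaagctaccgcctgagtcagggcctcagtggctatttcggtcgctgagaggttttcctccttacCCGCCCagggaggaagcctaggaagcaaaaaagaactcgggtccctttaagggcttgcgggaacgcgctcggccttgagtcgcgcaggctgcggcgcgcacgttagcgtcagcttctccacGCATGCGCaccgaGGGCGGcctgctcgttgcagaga
Smarca4 (chr9:21615919-21616218, plus strand): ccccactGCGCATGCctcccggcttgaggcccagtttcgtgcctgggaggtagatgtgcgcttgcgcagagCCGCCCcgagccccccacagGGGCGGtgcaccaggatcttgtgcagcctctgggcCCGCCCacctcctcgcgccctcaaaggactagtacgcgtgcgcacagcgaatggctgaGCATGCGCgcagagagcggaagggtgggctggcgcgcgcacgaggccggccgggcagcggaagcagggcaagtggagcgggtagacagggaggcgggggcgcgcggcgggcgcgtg
Smarcc1 (chr9:110131774-110132073, plus strand): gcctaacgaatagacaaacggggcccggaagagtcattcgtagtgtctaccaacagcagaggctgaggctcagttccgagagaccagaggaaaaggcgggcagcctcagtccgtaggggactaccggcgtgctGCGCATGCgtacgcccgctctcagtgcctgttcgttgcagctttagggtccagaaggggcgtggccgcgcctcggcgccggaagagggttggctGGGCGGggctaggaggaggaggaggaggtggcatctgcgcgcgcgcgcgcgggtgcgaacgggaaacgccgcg
Smarcd3 (chr5:24601953-24602252, minus strand): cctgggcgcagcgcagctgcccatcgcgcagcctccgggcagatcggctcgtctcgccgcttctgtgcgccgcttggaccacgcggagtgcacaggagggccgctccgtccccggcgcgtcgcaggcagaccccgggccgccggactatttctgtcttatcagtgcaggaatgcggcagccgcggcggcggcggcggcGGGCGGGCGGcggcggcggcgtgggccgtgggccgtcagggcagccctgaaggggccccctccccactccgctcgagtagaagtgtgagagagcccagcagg

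The member promoters were rich in CpG. Their median ratio of observed to expected CpG was 0.94, against 0.577 over the promoters of 17492 protein-coding genes and 0.789 over the 9435 of those with a start peak in all 4 libraries. Each motif was searched on both strands with overlapping matches counted, and a match says only that these letters are present. GGGCGG was found in 22 of 24 member promoters (91.7%), against 46.3% of all promoters and 68.6% of those with a start peak in every library. GCATGCGC was found in the promoters of Smarca4, Smarcb1 and Smarcc1 (12.5%), against 3.61% of all promoters and 5.88% of those with a start peak in every library, and in Smarcb1 it lay 14 bp after the start site. CCAAT was found in 5 (20.8%), against 39.2% of all promoters and 40.4% of those with a start peak in every library. The 5 were Actl6b, Bcl11a, Dpf1, Dpf2 and Dpf3, which include all of the DPF genes, which encode histone-reading subunits of BAF. Each of the other motifs was found in 3 member promoters or fewer. CCGGAAG and CACGTG were each in 3 (12.5%), against 11.9% and 7.91% of all promoters. Of promoters with a start peak in every library, 19.1% held CCGGAAG and 10.6% held CACGTG. AAGATGGC and TGANTCA were each in 2 (8.33%), against 3.21% and 7.03%, and CNCCTCAG was in 1 (4.17%), against 8.57%. Among promoters with a start peak in every library the shares were 4.67% for AAGATGGC, 3.68% for TGANTCA and 9.45% for CNCCTCAG. TGACGTCA was in no member promoter, against 2.33% of all promoters and 3.57% of those with a start peak in every library. The lowest CpG ratio of a member, 0.177, belonged to a Smarcd2 start site that lies 5366 bp inside the annotated gene and had no peak in any library.

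The 4 deposited lists held 28625 to 45422 peaks with median widths of 427 to 578 bp. Snf5 CKO 1 had the most and the narrowest peaks, and Snf5 CKO 2 had the fewest. The lists hold no read counts, so sequencing depth is unknown for all 4, and a missing peak does not show that a start was closed. At least 1 annotated end had a peak in every library for 8 of 10 germ cell marker genes, among them Ddx4, Dazl and Pou5f1. The same was found for 4 of 7 markers of ovarian supporting cells (Foxl2, Wt1, Wnt4 and Fst), 1 of 5 of stroma (Col1a1) and 1 of 7 of endothelium and blood (Kdr). Amhr2, Gata4, Nr5a1, Pdgfra, Col3a1, Cdh5, Ptprc, Hbb-bs and Gata1 had no peak at either end in any library. The marker peaks counted per library were 9, 8, 9 and 9 for germ cells, 4 in each for supporting cells, 3, 3, 3 and 1 for stroma and 2, 2, 1 and 1 for endothelium and blood, in the order Control 1, Control 2, Snf5 CKO 1 and Snf5 CKO 2. Accessibility is not expression, and the part that other cells may have in the results was not tested.

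A gene start was scored as open in a library when a peak touched the window of 1 kb on either side of it. A start was called kept when open in all 4 libraries, lost when open in both controls and in neither Snf5 CKO library, gained in the reverse case, closed when open in none, and mixed otherwise. For 7 members with no strand in the tables used (Arid2, Bicra, Bicral, Smarce1, Actb, Bcl7a and Ss18) both annotated ends were used. By this rule 27 of the 31 genes were kept, Smarcb1 was lost, Smarcd3 and Bcl11a were mixed, and Actb was closed. Without Snf5 CKO 1, Smarcd3 and Bcl11a counted as lost too, which made 3, and without Snf5 CKO 2 both counted as kept, which made 29 kept. Of the 30 members open in both controls, 1 was lost and 27 were kept, against backgrounds of 4.81% lost and 89.7% kept over the 13089 genes open in both controls. No member was gained, and the background among the 8090 genes closed in both controls was 0.482%. Apart from Smarcb1, then, the share of members that kept a start peak was close to that of genes in general. Among 37 genes of other chromatin remodellers (the ISWI, CHD and INO80 families and partners, with Smarcad1, Hells and Atrx), 33 were kept, 1 was lost, 2 were mixed and 1 was closed.

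Smarcb1 (NCBI gene 20587, chr10:75896769-75921614, minus strand) encodes the SNF5 protein, the core subunit that binds the nucleosome on the face opposite the ATPase. In Control 1 a peak of 729 bp covered its start (chr10:75921290-75922018, 4.37-fold over background by the authors' caller), and a second of 200 bp lay 896 bp upstream. That second peak also lies within 1 kb of an annotated end of Mmp11. In Control 2 a single peak of 1139 bp covered the start (chr10:75920997-75922135, 4.19-fold). Neither Snf5 CKO library had a peak in the window, and the promoter printed above was covered over 300, 300, 0 and 0 bases in Control 1, Control 2, Snf5 CKO 1 and Snf5 CKO 2. The summed length per library was thus 1034 bp ± 148 (SD, n = 2) in the controls and 0 in both Snf5 CKO libraries, with no overlap between the groups. This held with windows of 500 bp and 2 kb, with both gene ends, with peaks of −log10 q of at least 3, and with lists of equal length. With 2 libraries in each group the smallest two-sided p that an exact permutation test can give is 0.333, so this and the other differences below are given as values.

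Loss of a start peak at least as strong as that of Smarcb1 was rare in these libraries, but its peak was not among the strongest. Most of the 13089 starts open in both controls matched or passed it on each measure taken alone. Of all 13089, 4.81% were lost. Of 7794 starts open in both controls with a lower control fold of at least 4.19, 59 were lost (0.757%). Of 10515 with a lower control −log10 q of at least 4.95, 73 were lost (0.694%). Of 8009 whose shorter summed control length was at least 929 bp, 81 were lost (1.01%). For Smarcb1 that length includes the separate 200 bp peak upstream of its start in Control 1. Of 4995 that matched or passed Smarcb1 in fold, length and −log10 q together, 17 were lost (0.340%), Smarcb1 among them. In contrast, 90.6% of all 629 lost starts had a lower control fold than Smarcb1.

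Nothing was called within the gene body of Smarcb1 in either Snf5 CKO library, where 3 peaks lay within or across it in Control 1 and 1 in Control 2. The nearest peak upstream of its start was 10.8 kb away in Snf5 CKO 1 and 14.0 kb away in Snf5 CKO 2, and beyond the start peak it was 10.6 kb away in Control 2 too. The nearest region kept in all 4 libraries lay 2820 bp beyond the other end of the gene, at an annotated end of Derl3 (chr10:75892967-75893949), with peaks of 970, 874, 512 and 716 bp in Control 1, Control 2, Snf5 CKO 1 and Snf5 CKO 2. Peaks were therefore still called beside the gene in the Snf5 CKO libraries. The labels used here do not say which bases were deleted, so removal of the promoter DNA and closure of an intact promoter cannot be told apart.

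**Figure D1:**
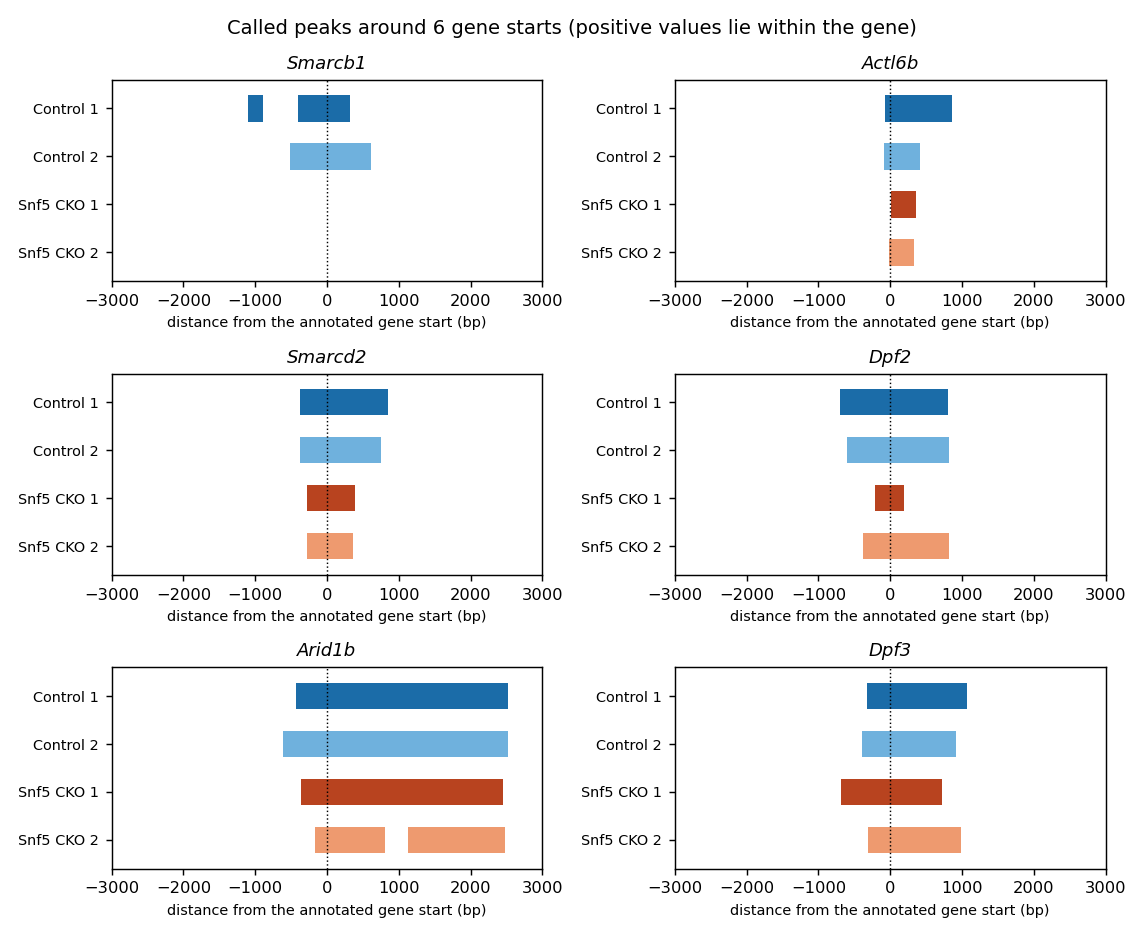
Called peaks (bars) in the 4 libraries around the annotated starts of 6 genes, with distance from the start in bp on the x axis and positive values inside the gene. Smarcb1 has bars in both controls only, Actl6b, Smarcd2 and Dpf2 have shorter bars in Snf5 CKO 1 than in either control, Arid1b is covered by 2 bars in Snf5 CKO 2, and Dpf3 has bars of 1296 to 1399 bp in every library.

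At the 27 kept members the peaks were shorter in the Snf5 CKO libraries, as they were at genes in general. The median summed length was 1237 and 1223 bp in Control 1 and Control 2, and 936 and 956 bp in the Snf5 CKO libraries. Both Snf5 CKO libraries were shorter than both controls at 19 of the 27 (70.4%), and at none were both longer. The backgrounds over 11747 kept genes were 78.2% shorter and 1.15% longer, so the members' share was no higher than that of other genes. The median log2 ratio of the mean Snf5 CKO length over the mean control length was −0.33 over the members (range −1.06 to 0.55), −0.40 over all kept genes and −0.37 over the 33 kept genes of other remodellers. The shorter length therefore cannot be read as particular to the SWI/SNF genes.

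**Figure D2:**
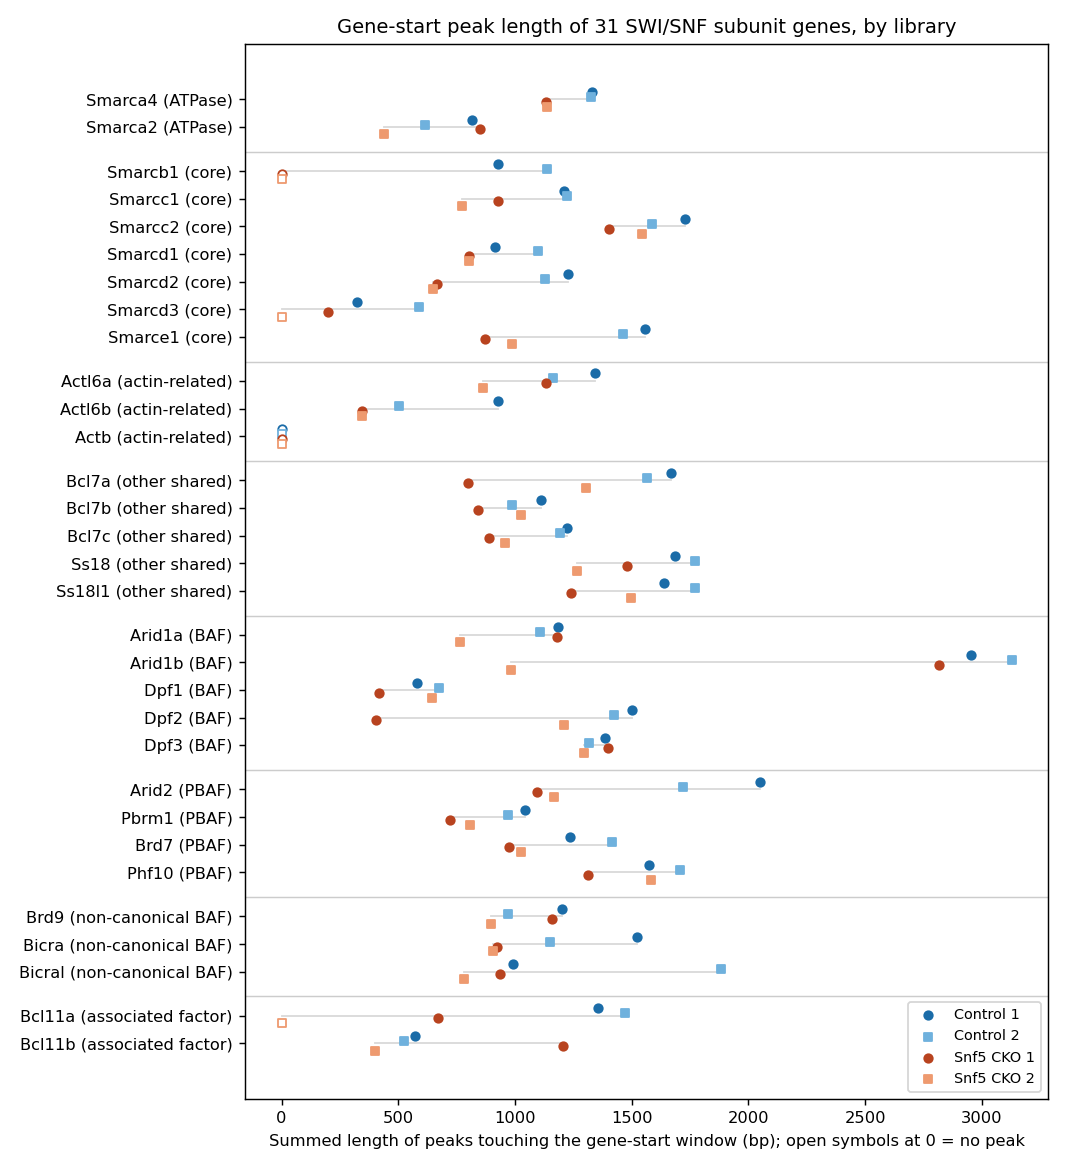
Summed length in bp of the peaks touching the start window (x axis) for each of the 31 genes (rows, grouped by role), with 1 symbol per library and open symbols at 0 for no peak. Most rows have both Snf5 CKO symbols to the left of both control symbols, Smarcb1 has both at 0, and Actb has all 4 at 0.

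Both ATPase genes kept their start peaks (pairs of values below are given for library 1 and then library 2 of a group). Smarca4, which encodes the ATPase BRG1, had peaks of 1329 and 1325 bp in the controls while the Snf5 CKO libraries had 1132 and 1138 bp. That is 1327 bp ± 2.83 against 1135 bp ± 4.24 (SD, n = 2 each), so the groups did not overlap although the log2 ratio was only −0.23. At 78.2% of all kept genes both Snf5 CKO libraries were likewise shorter than both controls, and 75.5% of kept genes had a lower ratio than Smarca4. Smarca2, which encodes the alternative ATPase BRM, had 814 and 616 bp in the controls and 851 and 440 bp in the Snf5 CKO libraries. Its groups overlapped, and its log2 ratio of −0.15 became 0.25 without Snf5 CKO 2 and 0.07 without Control 1. It was −1.42 with windows of 2 kb, −0.43 with both gene ends, −0.70 without Snf5 CKO 1 and −0.33 without Control 2.

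The core genes other than Smarcb1 were 5 kept and 1 mixed. All 5 kept were shorter in both Snf5 CKO libraries, beside a background of 78.2% over all kept genes. Smarcc1, which encodes the BAF155 scaffold that dimerises at the base of the complex, had 1209 and 1223 bp in the controls against 928 and 771 bp (log2 ratio −0.52). Smarcc2, its paralogue BAF170, had 1729 and 1588 bp against 1403 and 1543 bp (−0.17). Smarce1, the BAF57 subunit with an HMG domain, had 1558 and 1463 bp against 871 and 986 bp (−0.70). The SMARCC paralogues thus both had a start peak in every library, and the gap between the groups was narrower at Smarcc2 than at Smarcc1.

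The paralogues Smarcd1, Smarcd2 and Smarcd3 encode the BAF60 subunits, which occupy the same position and contact transcription factors, and their starts differed in state. Smarcd1 was kept, with 915 and 1099 bp in the controls and 804 and 801 bp in the Snf5 CKO libraries. Smarcd2 was kept with a lower ratio, with 1228 and 1130 bp in the controls and 668 and 648 bp in the Snf5 CKO libraries. That is 1179 bp ± 69.3 against 658 bp ± 14.1 (SD, n = 2 each), a log2 ratio of −0.84, and 12.9% of kept genes had a lower ratio. Smarcd3 was mixed, with 324 and 591 bp in the controls, 200 bp in Snf5 CKO 1 and no peak in Snf5 CKO 2. The start region of Smarcd2 also lies within 1 kb of an annotated end of Tcam1, and that of Smarcd1 near an end of Asic1, so those peaks are not those genes' alone.

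Smarcd3 has the inner start site whose sequence is printed above, 22454 bp inside the annotated gene. Peaks touching the 1 kb windows there were 1152 and 1431 bp long in the controls, and 642 bp in Snf5 CKO 2, with none in Snf5 CKO 1. The promoter sequence was covered over 300, 300, 0 and 202 bases in Control 1, Control 2, Snf5 CKO 1 and Snf5 CKO 2. Snf5 CKO 1 had a peak of 200 bp in the same merged region (chr5:24601646-24603349), past the window. Thus each Snf5 CKO library lacked a peak at 1 of the start sites of Smarcd3, and a different one in each. The control folds were low at both places, at most 3.49 at the annotated start and 2.85 at the inner one.

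Among the actin-related genes, Actl6a (BAF53A, found in dividing cells and also in other remodellers) had one of the strongest start peaks of the members, with folds of 5.83, 5.77, 6.16 and 7.12 in Control 1, Control 2, Snf5 CKO 1 and Snf5 CKO 2. Its lengths were 1341 and 1161 bp in the controls and 1131 and 864 bp in the Snf5 CKO libraries. Actl6b (BAF53B, the neuronal paralogue) had the lowest ratio of any kept member, with 928 and 504 bp in the controls and 343 and 344 bp in the Snf5 CKO libraries. That is 716 bp ± 299.8 against 343.5 bp ± 0.71 (SD, n = 2 each), a log2 ratio of −1.06, and 6.85% of kept genes had a lower one. The spread is on the control side: without Control 1 the ratio was −0.55, without Control 2 it was −1.43, and the Snf5 CKO libraries were nearly the same length. Actb, the beta-actin gene, had no peak at either annotated end, but a region 1036 bp from its nearer end (chr5:142905486-142906940) had peaks of 1455, 1283, 1200 and 1269 bp. With windows of 2 kb Actb was kept. Its closed call thus describes only the 1 kb windows at its annotated ends and does not show that its promoter lacked a peak. Actb had no promoter in the tables used, so whether this region covers a start site was not tested.

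The other shared subunits were all kept. Ss18, a subunit of BAF and non-canonical BAF, had 1685 and 1772 bp in the controls and 1482 and 1264 bp in the Snf5 CKO libraries. Its neuronal paralogue Ss18l1 (CREST) had 1638 and 1771 bp against 1241 and 1496 bp. Of the BCL7 genes, which encode small subunits at the ATPase module, Bcl7a had 1667 and 1566 bp in the controls against 800 and 1304 bp. Bcl7c had 1222 and 1195 bp against 890 and 956 bp. Bcl7b had the highest control fold of the members taken at the weaker control, with folds of 6.01, 5.79, 6.41 and 6.15 and lengths of 1113, 989, 841 and 1024 bp in Control 1, Control 2, Snf5 CKO 1 and Snf5 CKO 2. Its groups overlapped, since Snf5 CKO 2 lay between the controls. The Ss18 call rests on the window, because with 500 bp no peak touched an annotated end, and its log2 ratio of −0.33 was −1.17 by bases of the window covered. That of Ss18l1 was −0.32, and −0.57 with both gene ends. The start region of Ss18l1 also lies within 1 kb of an annotated end of Psma7, and the region at its other end near an end of Mtg2.

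The ARID genes, which encode the large DNA-binding subunits that set a complex apart as BAF or PBAF, had start peaks of low enrichment. Arid1b had the longest peaks of any member, 2955 and 3129 bp in the controls and 2817 bp in Snf5 CKO 1, with folds of only 2.65, 2.57, 2.80 and 3.23 in Control 1, Control 2, Snf5 CKO 1 and Snf5 CKO 2. At most 7.0% of the peaks in any list had a lower fold than the Arid1b peak of that list. Arid2 had 2048 and 1721 bp in the controls and 1095 and 1167 bp in the Snf5 CKO libraries, with folds of 2.51, 2.58, 3.08 and 2.99. The Arid2 regions with these peaks also lie within 1 kb of an annotated end of Gm38469. Each control length of Arid2 is the sum of 2 peaks (1463 with 585 bp, and 1495 with 226 bp), and by the longest single peak its log2 ratio was −0.39 instead of −0.74. Arid1a had 1183 and 1108 bp in the controls and 1181 and 763 bp in the Snf5 CKO libraries, with folds of 3.11, 3.03, 3.37 and 3.28. The low folds were found in both genotypes, and of the 3 genes only Arid1b had single peaks far longer than the member medians. The 983 bp of Arid1b in Snf5 CKO 2 is 1 of 2 neighbouring peaks, since another of 1354 bp began 1130 bp inside the gene, past the window. With windows of 2 kb the log2 ratio of Arid1b was −0.24 instead of −0.68, without Snf5 CKO 2 it was −0.11, and without Snf5 CKO 1 it was −1.63.

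The DPF genes, whose products read modified histone tails in BAF, were all kept, and their ratios differed. Dpf2, the form found in most tissues, had 1500 and 1423 bp in the controls and 404 and 1208 bp in the Snf5 CKO libraries, a log2 ratio of −0.86. Both Snf5 CKO values were below both controls, but the size rests on Snf5 CKO 1, without which the ratio was −0.27, and it was −1.86 without Snf5 CKO 2. Dpf3 had 1386 and 1318 bp against 1399 and 1296 bp, so the Snf5 CKO libraries enclosed the controls and the ratio was −0.0048 on the log2 scale. Dpf1 had 581 and 673 bp against 419 and 645 bp, which overlapped. Paralogues of 1 position thus ranged from near the lowest to near the highest ratio of the kept members.

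Of the PBAF genes, Arid2, Pbrm1 and Brd7 were shorter in both Snf5 CKO libraries and Phf10 was not, beside a background of 78.2% over all kept genes. Pbrm1, the polybromo subunit with several acetyl-lysine readers, had 1045 and 970 bp in the controls and 723 and 806 bp in the Snf5 CKO libraries, although its peak also touches an annotated end of Gnl3. Brd7, a bromodomain subunit, had 1237 and 1414 bp against 974 and 1027 bp. Phf10, a PHD-finger subunit, had 1574 and 1707 bp against 1312 and 1581 bp, so Snf5 CKO 2 was slightly longer than Control 1.

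The genes of non-canonical BAF, the form without SMARCB1, were kept too. Brd9, its bromodomain subunit, had 1201 and 969 bp in the controls and 1159 and 897 bp in the Snf5 CKO libraries, with folds of 5.34, 5.84, 6.06 and 5.99 in Control 1, Control 2, Snf5 CKO 1 and Snf5 CKO 2. Its log2 ratio of −0.08 turned to 0.09 without Control 1 and 0.10 without Snf5 CKO 2, and its peak is shared with the start region of Trip13. Bicra (Gltscr1) had 1523 and 1151 bp against 922 and 904 bp, a log2 ratio of −0.55 that was −0.33 by the longest single peak. Bicral, its paralogue, had 990 and 1884 bp against 936 and 782 bp, a log2 ratio of −0.74 that was −0.20 without Control 2 and −1.13 without Control 1. Its region is shared with an annotated end of Tbcc. The Bicra and Bicral values did not overlap between the groups, but for Bicral the gap between Control 1 and Snf5 CKO 1 was small. Over all kept genes, both Snf5 CKO libraries were shorter than both controls at 78.2%.

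The associated transcription factors Bcl11a and Bcl11b, zinc-finger proteins known from blood and brain and found in BAF preparations, differed in state. Bcl11a had 1355 and 1470 bp in the controls, 670 bp in Snf5 CKO 1 and no peak in Snf5 CKO 2. At a start site 4131 bp inside the gene, Snf5 CKO 1 was the library with no peak in the 1 kb windows. The controls had 696 and 447 bp there and Snf5 CKO 2 had 252 bp, though the control peaks did not reach the promoter sequence. Bcl11b had 573 and 524 bp in the controls and 1206 and 401 bp in the Snf5 CKO libraries. It was the only kept member whose mean was longer in the Snf5 CKO libraries (log2 ratio 0.55), and without Snf5 CKO 1 the ratio was −0.45. The sums hold different peaks, however. Control 1 had 201 bp at the start and 372 bp beginning 923 bp inside the gene. Snf5 CKO 1 had 451 bp at the start and 755 bp upstream of it. Control 2 had peaks of 569 and 317 bp at those outer places, just past the window. With windows of 2 kb the ratio turned negative. These were weak peaks, with folds of at most 2.92 at Bcl11a and 3.22 at Bcl11b. When peaks with a −log10 q under 3 were dropped, Bcl11b was no longer kept.

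**Figure D3:**
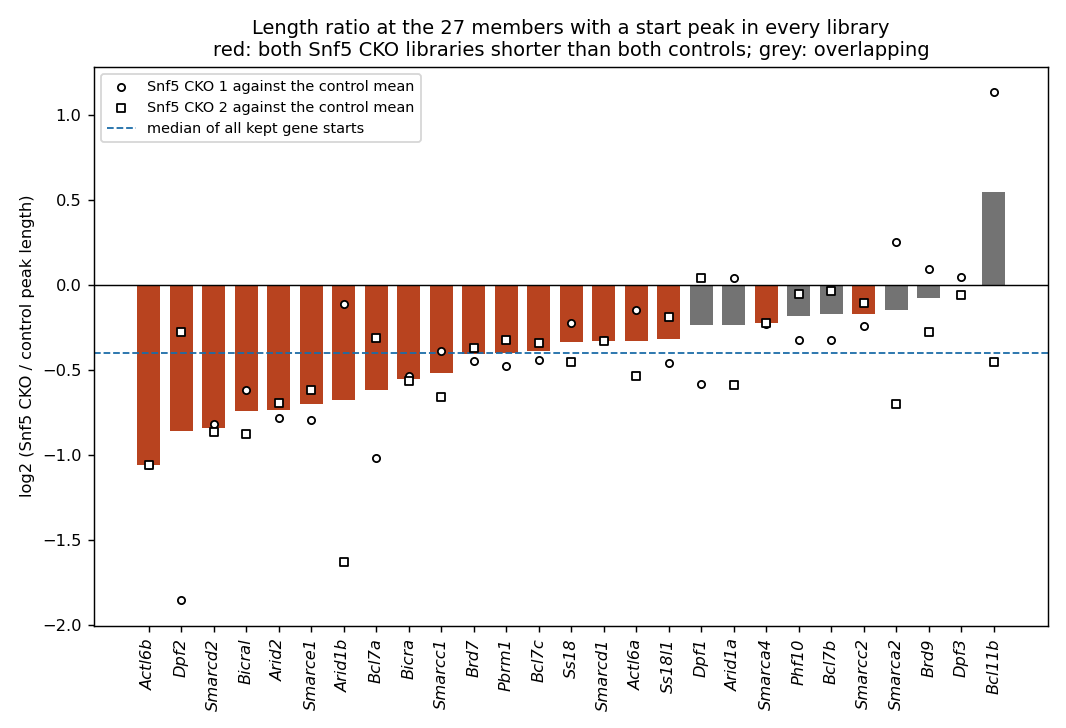
Bars give the log2 ratio of mean Snf5 CKO to mean control peak length for the 27 kept genes, ordered by ratio, with symbols for each Snf5 CKO library against the control mean and a dashed line at the median of all kept genes, −0.40. Bars run from −1.06 at Actl6b to 0.55 at Bcl11b, and the symbols of Dpf2, Arid1b, Smarca2 and Bcl11b lie far apart.

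By role, the count of kept genes shorter in both Snf5 CKO libraries was 1 of 2 for the ATPases, 5 of 5 for the core, 2 of 2 for the actin-related genes and 4 of 5 for the other shared subunits. It was 2 of 5 for the BAF genes, 3 of 4 for PBAF, 2 of 3 for non-canonical BAF and 0 of 1 for the associated factors. The background over all kept genes was 78.2%. No difference between roles was tested, and each role holds too few genes to read an order. The median member peak had a higher fold than 63.7% and 52.3% of the list in the controls, and than 76.5% and 60.0% in the Snf5 CKO libraries. Over all kept genes the values were 77.5%, 76.1%, 80.0% and 71.7%, so the members ranked lower in each list, and least so in Snf5 CKO 1.

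Around the members, in each gene plus 10 kb on either side, the peaks of the 4 libraries merged into 162 regions. Of these 70 were kept (43.2%), 16 lost (9.88%), 2 gained (1.23%) and 74 mixed. The backgrounds over the 44220 regions around all protein-coding genes were 35.7% kept, 8.58% lost and 3.85% gained. With 1 library left out, which asks for fewer libraries, dropping Control 2 gave 48 lost regions, dropping Control 1 gave 29 and dropping Snf5 CKO 1 gave 26. Gained regions were then 14 without Snf5 CKO 2 and 4 without Snf5 CKO 1, and 3 when either control was dropped. The backgrounds above are for all 4 libraries and do not apply to these counts, so whether the counts exceed those of other genes is not shown. Control 1, Control 2, Snf5 CKO 1 and Snf5 CKO 2 had a peak in 131, 113, 98 and 78 of the 162 regions. Over all genes Snf5 CKO 1 had nearly as many as Control 1, with 29322 against 29625 of the 44220 regions, which was not so around the members. Between these libraries the gap lay mostly in the 106 member regions away from gene ends, with 48 against 77. All genes had 16603 against 16250 there. At gene ends it was 50 against 54 around the members and 12719 against 13375 over all genes. Away from gene ends, Control 2 and Snf5 CKO 2 had peaks in 61 and 34 member regions, and in 14056 and 8598 over all genes. Snf5 CKO 2 was thus below Control 2 in both sets, and the controls also differed from each other around the members.

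Of the 16 lost regions 12 were in gene bodies, 6 of them in Arid1b, with 3 at an end of the member and 1 in a flank. Losses away from any gene end were 13 of 16 around the members and 2960 of 3795 around all genes, so this placing was near the background. Among the 106 regions away from any annotated gene end, 26 were kept, 13 lost (12.3%) and 2 gained (1.89%), beside 16.3% kept, 10.1% lost and 5.34% gained over all 29424 such regions. At gene ends 44 of 56 were kept (78.6%), beside 74.1% over all genes. The 26 kept regions away from gene ends were shorter in both Snf5 CKO libraries at 13 and longer at 2, beside backgrounds of 48.5% and 8.57%. Their median log2 ratio was −0.19, beside −0.26 over all genes, and at the 44 kept member regions at gene ends it was −0.38.

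Arid1b, the longest member gene, held 33 of the 162 regions, with 4 kept, 6 lost, 2 gained and 21 mixed. Both gained regions of the member set lay inside it. The stronger (chr17:5259071-5259309) had a peak in each Snf5 CKO library, 239 and 205 bp long, with folds of 4.92 and 4.83. The other (chr17:5324422-5324925) had 504 and 200 bp with folds of 3.26 and 3.52. Lost regions of Arid1b included chr17:5014168-5014589, with 422 and 205 bp in the controls (folds of 3.27 and 3.56), and chr17:5341901-5342855, with 560 and 955 bp (3.84 and 3.17). An internal region kept throughout (chr17:5189475-5190592) had peaks of 976, 935, 1046 and 857 bp in Control 1, Control 2, Snf5 CKO 1 and Snf5 CKO 2. Regions called lost, gained and kept were therefore found within 1 gene, beside backgrounds of 8.58% lost and 3.85% gained over all regions around genes. Several of these calls rest on peaks of 200 to 205 bp, and most regions of the gene were mixed. Around the members as a whole, fewer lost and gained regions remained with a −log10 q of at least 3.

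Bcl7c had the next most lost regions, 3 of its 9, while its start was kept. The strongest lost region away from gene ends of all members was there, inside the gene at chr7:127677155-127677452, with 298 and 259 bp in the controls and folds of 4.13 and 4.10. The others were chr7:127657040-127657281 in the flank (242 and 200 bp, folds of 3.66 and 3.80) and chr7:127666668-127667224 (435 and 274 bp, 3.28 and 3.38). Bcl7a lost an internal region at chr5:123368919-123369204 (272 and 200 bp, 3.43 and 3.50). Smarca2 lost one at chr19:26640304-26640723, inside the gene, with 360 and 338 bp in the controls and folds of 4.02 and 3.31. Pbrm1, Arid1a, Arid2 and Bcl11b each lost 1 region, all with a lower fold of 2.94 or less in the weaker control. Each of these genes kept a peak in its start window in every library.

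**Figure D4:**
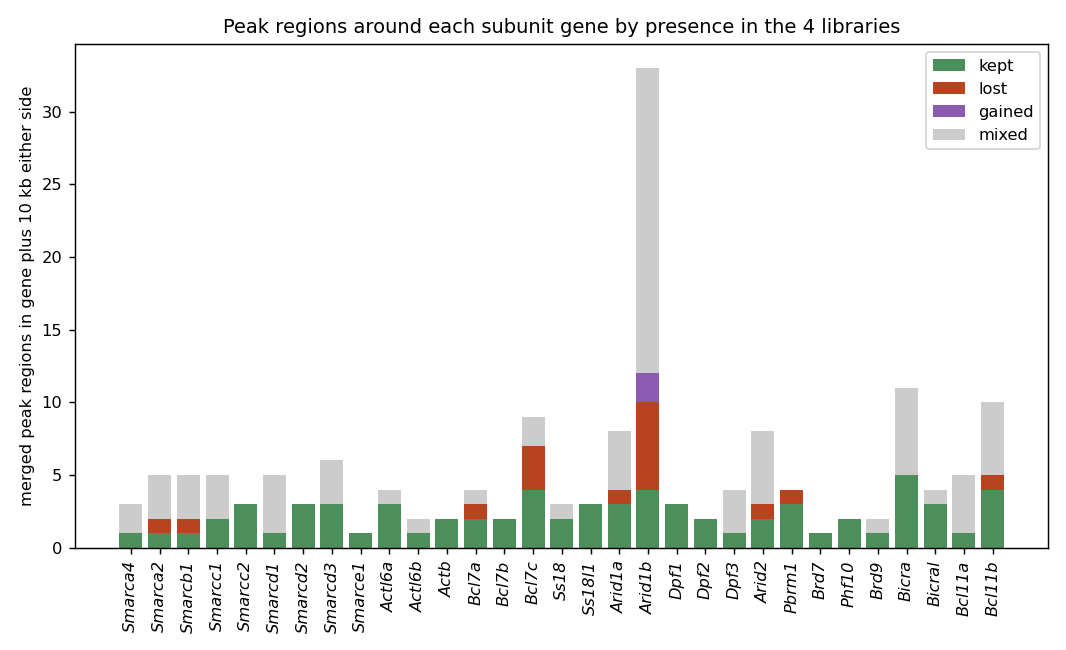
Stacked bars count the merged peak regions in each member gene plus 10 kb on either side (y axis), split into kept, lost, gained and mixed across the 4 libraries. Arid1b has 33 regions and the 2 gained ones, and Bcl7c has 3 lost of 9.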

How the data were processed

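ATAC-seq libraries of sorted germ cells were made by transposition, amplification with indexed primers and bead purification, per the labels' protocols. The submitters' processing notes name reads of 50 bp, the build mm10 and, with no role or order, MACS2 2.2.7.1, Picard 2.25.2, SAMtools 1.10, Bowtie2 2.4.2 and Trim Galore 0.6.5. Not given in the sources used here were the calling thresholds, the handling of duplicates, and whether read ends were shifted. For each library the authors deposited 1 list of broad peaks. Each deposited peak has a score, a fold enrichment (a ratio over background), and −log10 p and −log10 q values by the authors' caller. Folds and −log10 q values were compared only within a list.

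Genes were placed with the RefSeq table of GRCm38.p6, and strand was taken from the RefSeq promoter table, which lacked 4395 of 21887 genes, 7 of them members. For those, both annotated ends were used. A peak was counted from 1 bp of overlap with the window, and length is the sum of the full lengths of those peaks. Every gene was scored the same way. No test was fitted, since an exact permutation test of 2 libraries against 2 cannot go below a two-sided p of 0.333. The spread between libraries may be technical, since nothing says they came from separate animals. Regions are the union of overlapping peaks over the 4 lists, 66058 in all. Python 3.11.15, pandas 2.3.3 and numpy 2.4.6 were used, and the scoring was tested on simulated data. Groups came from the titles.

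Values in every library are given for Smarcb1, members that were not kept, the 4 lowest and 4 highest ratios, the 3 highest lower control folds, paralogues that differ in state, and up to 8 lost and 8 gained regions by fold. Other members' values were added to account for each. The members and lists were chosen with earlier results of these data known. Alternatives varied the window, ends, overlap, −log10 q, list length, length measure, flank and merging gap, and left out each library. The start sites of the promoter table were added as an alternative after seeing the data.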

Additional observations from a re-analysis of the deposited data

How the results depend on the processing

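Smarcb1 was lost, and no member was gained, in all alternatives run. The number of members lost was 1 in each except without Snf5 CKO 1, when Smarcd3 and Bcl11a joined it (both kept without Snf5 CKO 2), so that leaving out 1 library gave 1 to 3. The median log2 length ratio of the kept members, −0.33, was −0.36 with windows of 500 bp or 2 kb, −0.40 with both gene ends and −0.37 by bases of the window covered. It was −0.36 at the start sites of the promoter table, an alternative chosen after seeing the data, and −0.44 to −0.31 leaving out 1 library. Lost regions around the members, 16, were 10 with a −log10 q of at least 3 and 10 with lists of equal length, and 18 to 48 leaving out 1 library. Gained regions, 2, were 5 with flanks of 25 kb, 1 with a −log10 q of at least 3, and 3 to 14 leaving out 1 library, the highest without Snf5 CKO 2. The backgrounds given for lost and gained regions are for the main setting only. The sign of the ratio turned for 6 genes. Leaving out 1 library, Smarca2 ranged from −0.70 (without Snf5 CKO 1) to 0.25 (without Snf5 CKO 2), with 0.07 without Control 1, and was −1.42 with windows of 2 kb. Arid1a ranged from −0.586 without Snf5 CKO 1 to 0.0440 without Snf5 CKO 2, and Dpf1 from −0.58 without Snf5 CKO 2 to 0.0408 without Snf5 CKO 1. Dpf3 ranged from −0.0610 without Snf5 CKO 1 to 0.0493 without Snf5 CKO 2, and was 0.0292 by bases covered. Brd9 ranged from −0.27 without Snf5 CKO 1 to 0.10 without Snf5 CKO 2, with 0.09 without Control 1. Bcl11b ranged from −0.45 without Snf5 CKO 1 to 1.14 without Snf5 CKO 2, and was −0.30 with windows of 2 kb and −0.97 at the promoter table's start sites. The causes were not tested. Of 332 recomputed member ratios, 291 moved by no more than the spread between libraries, 29 moved further and 12 changed sign. Many of the 291 were unchanged because the same peaks, taken at full length, were touched. Where libraries of a group differed, the spread was wide. Arid1b at −1.63 without Snf5 CKO 1, against −0.68, was thus among the 291. The count is therefore no measure of how firm a ratio is. States also changed for Ss18 (closed with windows of 500 bp, mixed with an overlap of 200 bp), Actb (kept with 2 kb) and Smarcd2 (closed at the promoter table's start site). No paired analysis was possible because no result comes from a fitted test to which a replicate block could be added, and nothing in the labels ties libraries of the same number. The unknown depth limits every call of absence, and leaving out a library leaves a single one in its group.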
